A study of Mus musculus with 8 samples.

Results

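The 32 genes described here are a fixed list of S phase and mitosis genes, looked up by symbol among the 23369 genes counted in neutrophils of the inflamed mouse spinal cord. All 32 were found. They fall into 10 DNA replication genes (Mcm2 to Mcm7, Pcna, Tyms, Rrm1 and Rrm2), 19 mitotic genes (Mki67, Top2a, Ccna2, Ccnb1, Ccnb2, Cdk1, Birc5, Tpx2, Aurka, Aurkb, Bub1, Bub1b, Plk1, Cenpa, Cenpe, Cenpf, Ube2c, Cdc20 and Nusap1) and 3 genes of neither class (Stmn1, Hmgb2 and Tubb5). The rule for the list names genes by function and uses no measured value, but earlier results of these data were known when it was chosen. The cells were spinal cord cells sorted as CD45+CD11b+Ly6G+, and the mice were of the C57BL/6N strain. The animals had experimental autoimmune encephalomyelitis (EAE), in which an immune attack on the brain and spinal cord is provoked to model multiple sclerosis. Mice were sampled at zeitgeber time 1 (ZT1, n = 4) or 13 (ZT13, n = 4), zeitgeber time being counted in hours from lights-on. EAE had been induced in both groups, so every value below is from diseased animals. The labels speak of sorted cells per mouse but name no animals, so p-values measure the spread between these libraries.

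Cells that prepare to divide switch on 2 waves of genes. In S phase the E2F factors drive the genes that copy DNA: the minichromosome maintenance proteins Mcm2 to Mcm7 form the helicase that opens the double helix, Pcna is the clamp that holds the polymerases on DNA, and Tyms, Rrm1 and Rrm2 make the nucleotides. Later, MuvB complexes with B-Myb and FoxM1 switch on the genes of G2 and mitosis. The products of these genes condense chromosomes, build the spindle and control the exit from mitosis. DREAM is a repressing form of the MuvB complex. Neutrophils divide only as precursors, which in health are found in the bone marrow, and the mature cell that enters tissue no longer divides.

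The promoters of the 2 classes are known for different elements, and 6 promoters are shown because they hold, or lack, the elements that set replication and mitotic genes apart in sequence. Promoters of 300 bases (250 before to 50 after the start) were taken from RefSeq with build GRCm38.p6. They were found for 9 of the 10 replication genes, 16 of the 19 mitotic genes and 2 of the 3 others. The E2F element was searched as TTTGGCGC, TTTGCCGC, TTTCGCGC or TTTCCCGC, and the cell cycle homology region, which the MuvB complexes bind, as TTTGAA or TTTAAA, each on both strands (TTTAAA reads the same on both). The stretches below are the 160 bases before the start, written 5′ to 3′ on the strand of the gene, with both kinds of element in capitals.
Mcm5 (chr8:75109349-75109508, plus strand): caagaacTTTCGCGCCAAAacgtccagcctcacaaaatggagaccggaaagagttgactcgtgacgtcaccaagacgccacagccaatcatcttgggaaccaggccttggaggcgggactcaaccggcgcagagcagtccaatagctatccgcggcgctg
Mcm6 (chr1:128359706-128359865, minus strand): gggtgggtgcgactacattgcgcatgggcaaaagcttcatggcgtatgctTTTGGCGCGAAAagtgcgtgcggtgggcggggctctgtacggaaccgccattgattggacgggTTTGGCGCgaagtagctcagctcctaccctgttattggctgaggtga
Cdk1 (chr10:69352913-69353072, minus strand): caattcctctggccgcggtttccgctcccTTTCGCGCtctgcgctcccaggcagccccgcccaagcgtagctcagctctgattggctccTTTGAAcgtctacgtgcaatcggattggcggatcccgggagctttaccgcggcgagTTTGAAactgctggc
Top2a (chr11:99024190-99024349, minus strand): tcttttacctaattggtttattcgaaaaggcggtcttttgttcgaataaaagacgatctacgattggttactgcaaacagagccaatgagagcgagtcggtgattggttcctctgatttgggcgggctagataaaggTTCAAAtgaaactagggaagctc
Cdc20 (chr4:118437344-118437503, minus strand): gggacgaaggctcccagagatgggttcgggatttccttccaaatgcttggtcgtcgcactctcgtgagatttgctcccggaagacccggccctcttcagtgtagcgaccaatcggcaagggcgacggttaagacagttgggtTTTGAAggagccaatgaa
Bub1 (chr2:127831860-127832019, minus strand): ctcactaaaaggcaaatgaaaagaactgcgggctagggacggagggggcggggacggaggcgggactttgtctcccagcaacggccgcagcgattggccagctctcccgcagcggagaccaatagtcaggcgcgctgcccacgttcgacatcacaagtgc
Mcm5 and Mcm6, helicase subunits, each hold a run of capitals in which an E2F match on one strand overlaps one on the other, and Mcm6 holds an additional match nearer to its start. Top2a and Cdc20 hold a cell cycle homology region close to the start. Cdk1 holds 1 E2F match and 2 homology regions. Mcm5 also holds a homology region, TTTAAA at -221 to -216 from the start, and Top2a another, TTTGAA at -179 to -174. Both lie before the printed bases. Bub1 holds neither element in these letters, which says only that the letters are not in this window.

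Among the mitotic genes, 14 of 16 (87.5%) had a homology region in the 300 bases. So had 3 of 9 replication genes (33.3%: Mcm2, Mcm5 and Rrm2) and 30.6% of all 27025 genes with a promoter in the table. The 2 mitotic genes without one were Bub1 and Nusap1. E2F matches were found in 4 of 9 replication genes (44.4%: Mcm3, Mcm5, Mcm6 and Mcm7), in 1 mitotic gene (6.25%: Cdk1) and in 2.6% of all genes. The CCAAT box, bound by NF-Y, was searched as CCAAT on both strands and was present in 88.9% of the replication genes, 87.5% of the mitotic genes and 41.1% of all genes. The same split was seen in longer lists of the same pathways: 74.5% of 47 other mitotic genes but 25.0% of 40 other replication genes had a homology region, and 10.6% and 32.5% an E2F element. A match is a description of the letters and not a measured binding site.

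**Figure D1:**
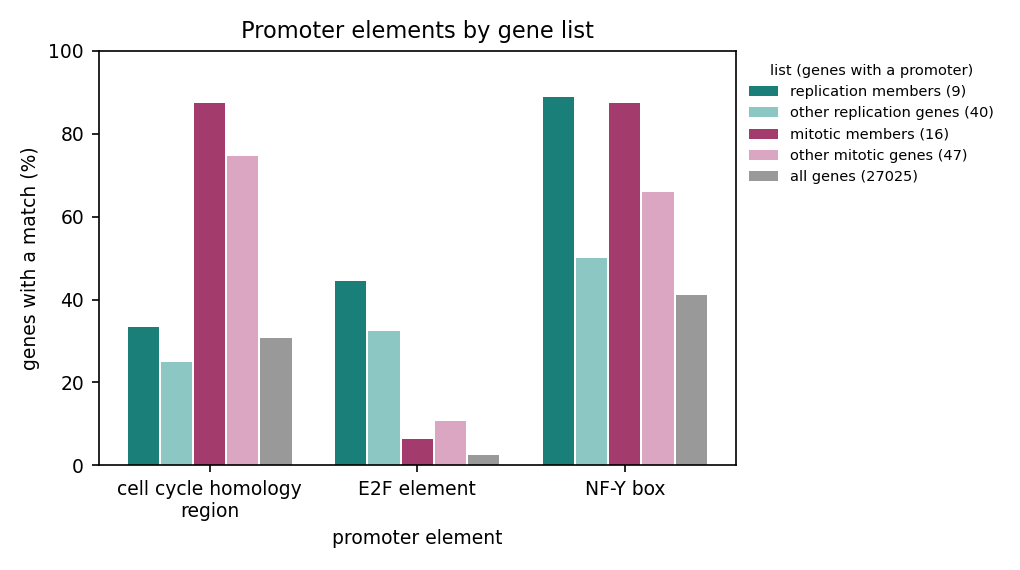
Share of genes (%) with a match to the cell cycle homology region, the E2F element or the CCAAT box bound by NF-Y in the 300-base promoter, for the 2 member lists, the 2 longer pathway lists and all genes of the table. The homology region reaches 87.5% in the mitotic members and 33.3% in the replication members, and the E2F element 6.25% and 44.4%.

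Library totals ranged from 46152067 to 67873023 counts. Genes with 1 or more counts numbered 15760 to 17701 at ZT1 and 13945 to 15751 at ZT13. Along the first principal component ZT13 replicate 3 stood alone, and along the second ZT13 replicates 1 and 4 lay at opposite ends. The deposited counts were tested with edgeR's quasi-likelihood test, ZT13 over ZT1, with p-values adjusted over the 12610 genes kept by the filter and a threshold of 0.05. No gene passed (0.0%), while 1160 (9.2%) had an unadjusted p under 0.05 and DESeq2 called 256 (1.7% of the 15032 genes it adjusted). All 32 cell cycle genes passed the filter. Each had between 827 and 54144 counts in every library, so that the spread between libraries and not counting error set the precision of the values below. Levels are CPM values, which are counts scaled by library size and TMM factors, and fold changes are log2 of ZT13 over ZT1, so that a negative value is higher at ZT1.

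The mitotic genes were all higher on average at ZT1. The log2 fold change was below 0 in 19 of 19, between -0.92 (Bub1) and -0.08 (Birc5), with a median of -0.41. Over all genes tested, 52.3% were below 0 and the median was -0.02. Over the 5146 genes averaging 20 or more CPM, as all 19 did, these were 56.8% and -0.04. None of the 19 passed the edgeR threshold, against 0.0% of all genes. An unadjusted p under 0.05 was found in 7 (Bub1, Cdc20, Aurka, Top2a, Ccnb1, Bub1b and Plk1). With higher values at ZT1, 4.85% of all genes had one, and 402 of the 5146. Bub1 and Aurka did not overlap between the groups, as for 3.0% of all genes in that direction and 196 of the 5146. In bulk RNA, fewer cells of a kind and less RNA per cell cannot be told apart. Each library was scaled to its own total, so the values are relative levels.

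**Figure D2:**
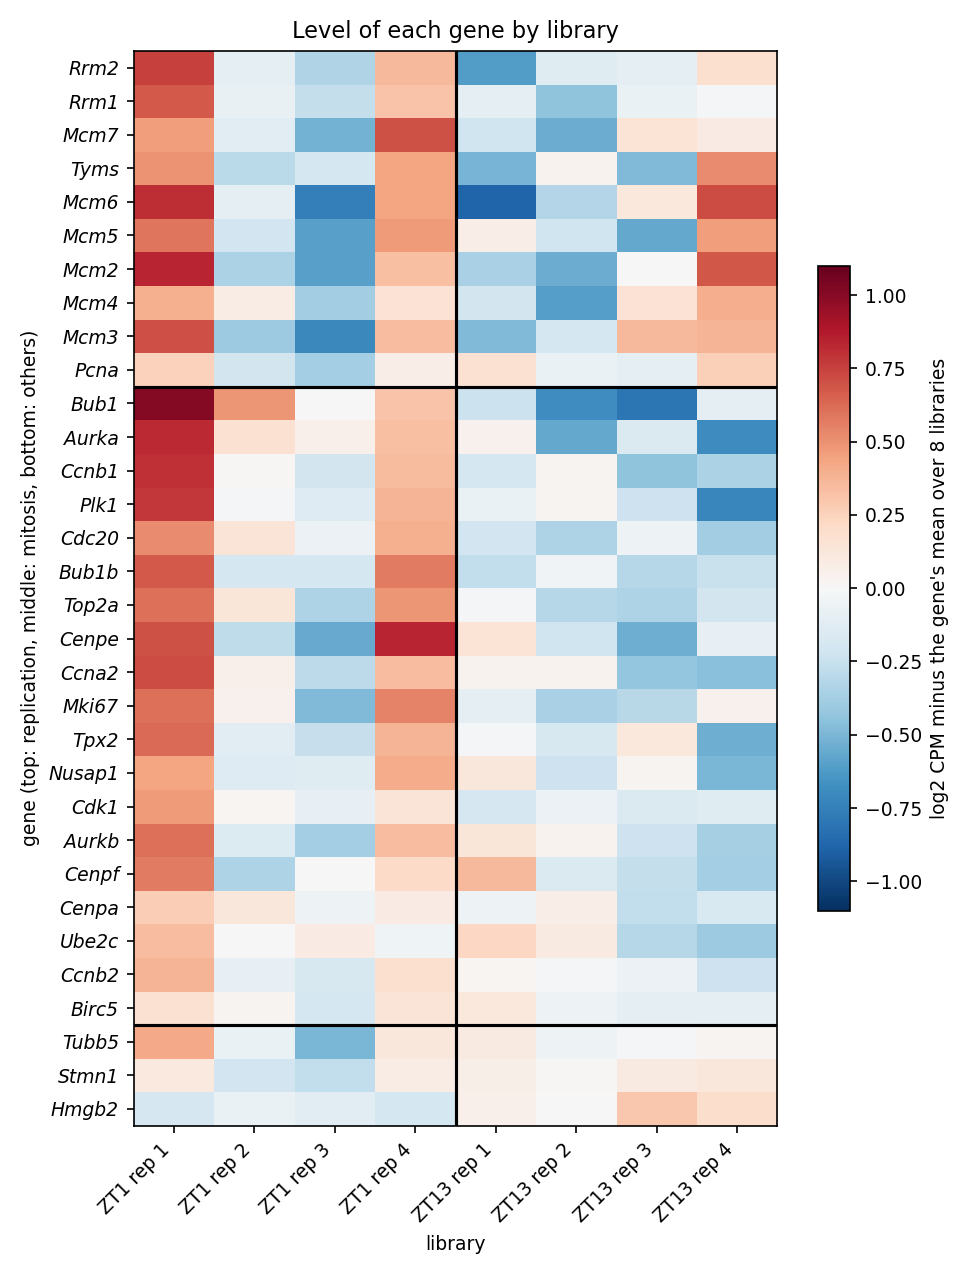
Level of each of the 32 genes in each of the 8 libraries, as the difference in log2 CPM from the gene's mean over all libraries (colour), with libraries in columns and genes in rows grouped as replication, mitotic and other. ZT1 replicate 1 is the highest library for 18 of the 19 mitotic genes, and ZT13 replicate 4 the lowest for 9 of them.

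Bub1, a kinase of the spindle checkpoint that holds cells until every chromosome is attached, had the lowest p of the 32 genes. It stood at 70.7, 49.3, 35.2 and 43.8 CPM in ZT1 replicates 1 to 4 and at 29.8, 21.9, 20.3 and 32.8 CPM in ZT13 replicates 1 to 4. All 4 ZT1 libraries were thus above all 4 ZT13 libraries, although ZT1 replicate 3 and ZT13 replicate 4 came close. Its log2 fold change was -0.92 ± 0.24 (SE; 95% interval -1.46 to -0.39; edgeR adjusted p = 0.396). With DESeq2 the adjusted p was 0.0214, the single call among the 32 genes. Over all 16 alternative fits its log2 fold change lay between -1.06 and -0.71 and its adjusted p between 0.0214 and 0.734.

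Aurka, the kinase that matures the spindle poles, was named after its values were seen, as the other gene without overlap. Its levels were 93.4, 59.4, 55.1 and 66.3 CPM at ZT1 and 54.5, 35.7, 47.3 and 32.8 CPM at ZT13 (log2 fold change -0.69 ± 0.21 SE; edgeR adjusted p = 0.455). The gap was narrow, between 55.1 CPM in ZT1 replicate 3 and 54.5 CPM in ZT13 replicate 1. Cdc20, the activator of the anaphase-promoting complex that starts chromosome separation, stood at 100.4, 76.9, 66.8 and 91.5 CPM at ZT1 and at 60.4, 55.3, 67.3 and 53.5 CPM at ZT13. Its groups overlapped only through ZT1 replicate 3 and ZT13 replicate 3. The log2 fold change was -0.50 ± 0.14 (SE; edgeR adjusted p = 0.432). Cdc20 shares part of its locus with Elovl1 on the other strand, which held 71852 counts against 32414 for Cdc20, and the library kit does not mark strand, so that reads from the shared part cannot be told apart.

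The usual marks of cycling cells had the same direction with wider overlap. Top2a, the topoisomerase that untangles replicated chromosomes, stood at 284, 205, 148 and 262 CPM at ZT1 and at 184, 150.2, 148 and 162 CPM at ZT13 (log2 fold change -0.48 ± 0.19 SE; edgeR adjusted p = 0.503). ZT1 replicate 3 lay at the level of the lowest ZT13 libraries and the other 3 ZT1 libraries above all of ZT13. Mki67, which coats mitotic chromosomes, stood at 135, 91.4, 63.4 and 129 CPM at ZT1 and at 82.2, 69.2, 71.9 and 91.3 CPM at ZT13 (-0.41 ± 0.22 SE; edgeR adjusted p = 0.616). Its lowest value of all was that of ZT1 replicate 3. Ccnb1, cyclin B1, stood at 108, 62.1, 53.6 and 78.6 CPM at ZT1 and at 53.9, 63.1, 45.5 and 48.4 CPM at ZT13 (-0.52 ± 0.21 SE; edgeR adjusted p = 0.519). Its partner Cdk1, the kinase that starts mitosis, stood at 66.2, 48.7, 44.9 and 52.9 CPM at ZT1 and at 42.1, 45.9, 43.1 and 43.7 CPM at ZT13 (-0.28 ± 0.14 SE; edgeR adjusted p = 0.572). The 4 ZT13 libraries were close to each other for Cdk1, with an SD of 1.61 CPM against 9.28 at ZT1.

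The 4 mitotic genes with the highest level per transcript length also had the 4 smallest fold changes. Ccnb2, cyclin B2, stood at 128, 92.5, 87.0 and 111 CPM at ZT1 and at 99.9, 96.9, 94.3 and 84.2 CPM at ZT13. Birc5, survivin, a subunit of the chromosomal passenger complex, stood at 68.7, 62.3, 53.3 and 67.3 CPM at ZT1 and at 66.3, 58.8, 56.9 and 56.7 CPM at ZT13. In both genes 1 or more ZT1 libraries lay below ZT13 libraries. Cenpa, the histone that marks centromeres, stood at 86.6, 78.4, 69.0 and 76.5 CPM at ZT1 and at 69.4, 75.8, 59.5 and 63.9 CPM at ZT13. Ube2c, the ubiquitin-conjugating enzyme of the anaphase-promoting complex, stood at 108, 85.2, 90.8 and 82.2 CPM at ZT1 and at 99.7, 91.4, 68.6 and 64.3 CPM at ZT13. Their log2 fold changes were -0.16 ± 0.13 (SE) for Ccnb2, -0.08 ± 0.12 for Birc5, -0.21 ± 0.12 for Cenpa and -0.17 ± 0.16 for Ube2c. No fold change among them passed the threshold (lowest edgeR adjusted p = 0.628, for Cenpa).

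The other 8 mitotic genes (Ccna2, Tpx2, Aurkb, Bub1b, Plk1, Cenpe, Cenpf and Nusap1) had log2 fold changes between -0.51 (Plk1, the polo-like kinase) and -0.23 (Cenpf, a kinetochore protein). Bub1b, a checkpoint kinase relative of Bub1, was at -0.49 ± 0.21 (SE) and Plk1 at -0.51 ± 0.23. Cenpe, the kinetochore motor, had the largest SD of log2 CPM at ZT1 among the mitotic genes (0.70; 22.0 to 57.9 CPM) and was the only mitotic gene highest in ZT1 replicate 4.

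**Figure D3:**
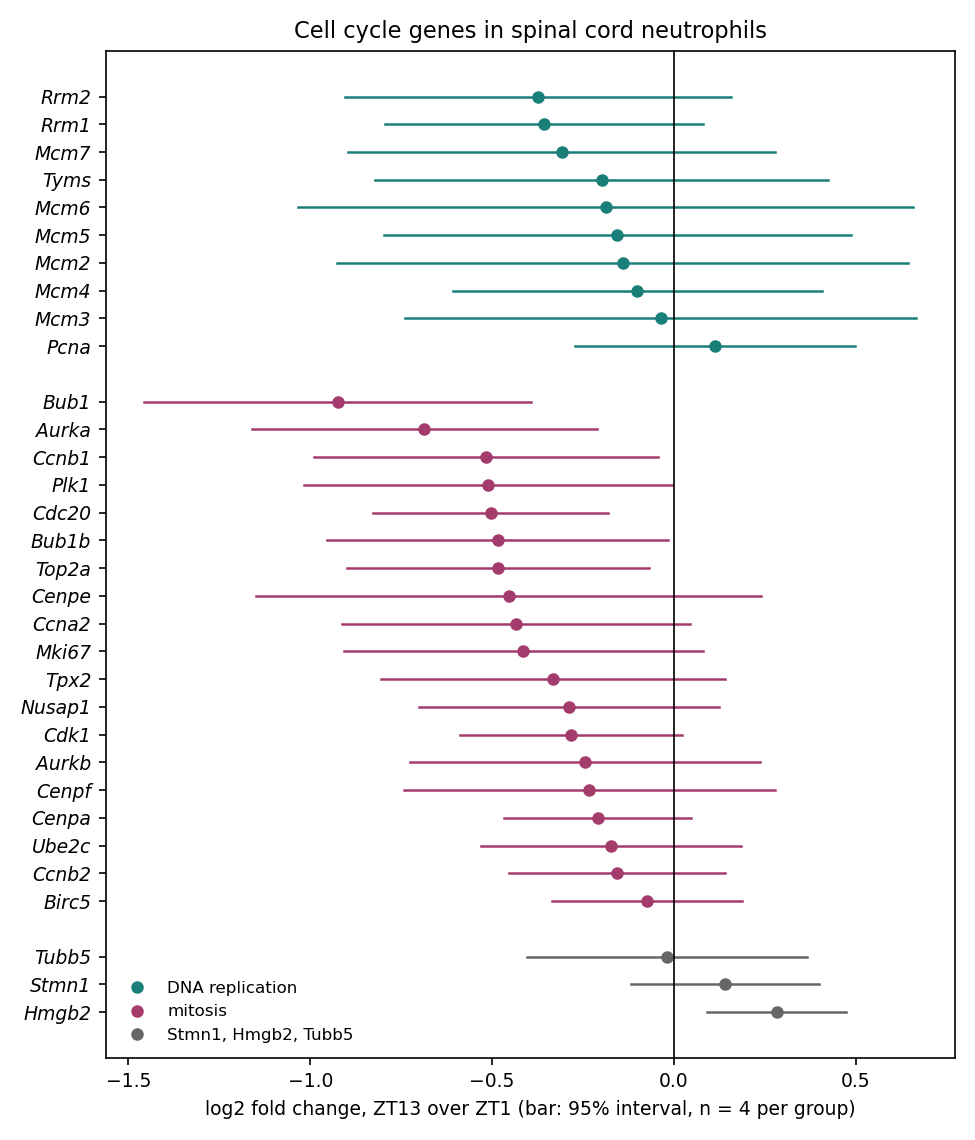
Log2 fold change of ZT13 over ZT1 for each of the 32 genes (points, with the 95% confidence interval of the edgeR fit as bars), coloured by list. All 19 mitotic genes lie left of 0, from -0.92 for Bub1 to -0.08 for Birc5, 9 of the 10 replication genes lie between -0.37 and -0.04, and Hmgb2 lies at 0.28.

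The higher mitotic levels at ZT1 were carried by part of the ZT1 libraries. ZT1 replicate 1 was above all 4 ZT13 libraries in 19 of 19 mitotic genes and ZT1 replicate 4 in 17, but ZT1 replicate 2 in 8 and ZT1 replicate 3 in 2. For all genes tested these shares were 20.4%, 21.5%, 18.3% and 17.8%. The SD of log2 CPM was larger at ZT1 than at ZT13 in 16 of 19 mitotic genes, with medians of 0.41 and 0.23. Over all genes it was larger at ZT1 in 33.8%, and over those averaging 20 or more CPM in 43.1%. Without ZT1 replicate 1 the mitotic median was -0.25 and 3 genes had an unadjusted p under 0.05, and without ZT1 replicate 3 they were -0.58 and 11. The count of 7 also went to 3 without ZT1 replicate 4, ZT13 replicate 3 or ZT13 replicate 4, and to 4 without ZT13 replicate 1. The 19 genes stayed below 0 in each of these fits and in the other alternatives.

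The replication genes showed smaller average differences and a wider spread within each time. Of the 10, 9 had a log2 fold change below 0, between -0.37 and -0.04, and Pcna had 0.11. The median was -0.17. None passed the edgeR threshold (lowest adjusted p = 0.626), none had an unadjusted p under 0.05 and none was without overlap. Of all genes, 9.2% had an unadjusted p under 0.05, as had 788 of the 5146 genes averaging 20 or more CPM.

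Of the nucleotide genes, Rrm2, the small subunit of ribonucleotide reductase, stood at 312, 174, 148 and 238 CPM at ZT1 and at 122, 169.6, 173 and 209.8 CPM at ZT13 (log2 fold change -0.37 ± 0.24 SE; edgeR adjusted p = 0.705). Rrm1, its large subunit, stood at 201, 119, 105 and 157 CPM at ZT1 and at 117, 92.8, 119.8 and 125 CPM at ZT13 (-0.36 ± 0.20 SE; edgeR adjusted p = 0.626). In both genes ZT1 replicates 1 and 4 were above every ZT13 library and ZT1 replicates 2 and 3 were within their range. Tyms, thymidylate synthase, lay between 18.9 and 32.7 CPM at ZT1 and between 16.4 and 33.4 CPM at ZT13.

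The helicase subunits differed among themselves. Mcm6 stood at 124, 65.6, 42.0 and 95.1 CPM at ZT1 and at 38.3, 56.3, 76.3 and 116 CPM at ZT13, a 2.95-fold range within ZT1 and a 3.02-fold range within ZT13 that exceeds the difference between the times (log2 fold change -0.19 ± 0.38 SE; edgeR adjusted p = 0.936). Its highest value was in ZT1 replicate 1 and its second highest in ZT13 replicate 4. Mcm3 stood at 106, 49.0, 39.7 and 81.9 CPM at ZT1 and at 46.3, 56.7, 83.0 and 83.9 CPM at ZT13 (-0.04 ± 0.31 SE; edgeR adjusted p = 0.986). Mcm5 stood at 127, 73.3, 55.8 and 117 CPM at ZT1 and at 88.9, 72.6, 57.3 and 116 CPM at ZT13 (-0.16 ± 0.29 SE; edgeR adjusted p = 0.924). In each of these 3 genes the libraries of the 2 times were interleaved, and the sign of the fold change turned when single libraries were left out.

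Mcm7 stood at 78.3, 52.2, 39.7 and 92.1 CPM at ZT1 and at 49.0, 39.0, 63.3 and 60.5 CPM at ZT13 (-0.31 ± 0.26 SE; edgeR adjusted p = 0.794). ZT1 replicates 1 and 4 were again above all ZT13 libraries. Mcm7 overlaps Cops6 on the other strand, which held 29953 counts against 26906 for Mcm7, and without strand the shared reads cannot be told apart. Mcm2 (26.3 to 71.0 CPM) and Mcm4 (42.2 to 84.4 CPM) completed the helicase, with log2 fold changes of -0.14 ± 0.35 (SE) and -0.10 ± 0.23. Pcna lay between 21.6 and 33.4 CPM at ZT1 and between 26.0 and 33.6 CPM at ZT13 (0.11 ± 0.17 SE; edgeR adjusted p = 0.902).

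**Figure D4:**
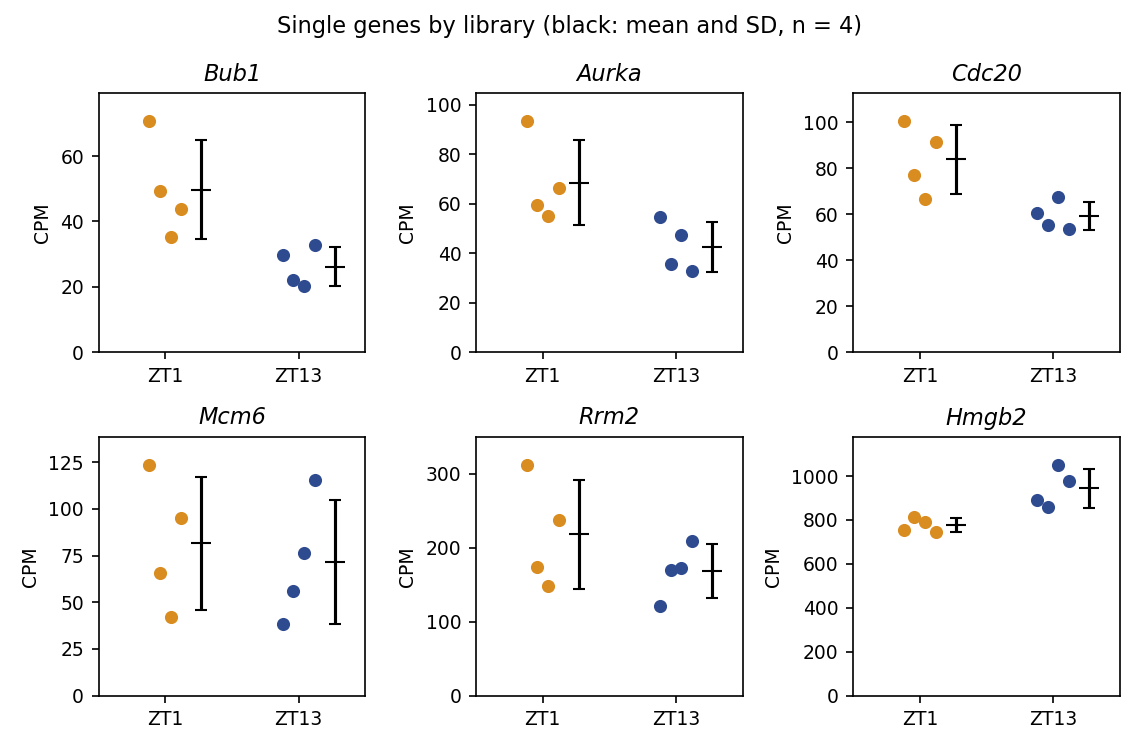
CPM of Bub1, Aurka, Cdc20, Mcm6, Rrm2 and Hmgb2 in each library (points, replicates 1 to 4 from left to right) at ZT1 and ZT13, with mean and SD (black, n = 4). Bub1, Aurka and Hmgb2 do not overlap between the times, Cdc20 overlaps through 1 library of each time, and Mcm6 spans 38.3 to 116 CPM within ZT13 alone.

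Set side by side, the means of replication and mitotic genes ordered the libraries alike at ZT1 and in opposite ways at ZT13. The mean log2 CPM of the 10 replication genes was 6.55, 5.78, 5.49 and 6.32 in ZT1 replicates 1 to 4 and 5.65, 5.65, 5.90 and 6.32 in ZT13 replicates 1 to 4 (6.03 ± 0.49 and 5.88 ± 0.32, SD, n = 4). That of the 19 mitotic genes was 6.60, 6.01, 5.84 and 6.35 at ZT1 and 6.01, 5.86, 5.76 and 5.70 at ZT13 (6.20 ± 0.34 and 5.83 ± 0.13). At ZT1 both lists had the order replicate 1, 4, 2 and 3 from high to low. At ZT13 the order from high to low was replicate 4, 3, 2 and 1 for the replication mean, with replicates 1 and 2 nearly level. For the mitotic mean it was replicate 1, 2, 3 and 4.

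The replication mean minus the mitotic mean, a difference in log2 CPM within a library, was -0.04, -0.23, -0.35 and -0.03 at ZT1 (-0.16 ± 0.15) and -0.36, -0.21, 0.14 and 0.62 at ZT13 (0.05 ± 0.44). The 2 times overlapped in it, and the mean at ZT13 rests on replicates 3 and 4. Where its 0 falls depends on the levels of the different genes in the 2 lists. No test was made of this score. ZT13 replicate 4 was above all ZT1 libraries in 3 of 10 replication genes (Mcm4, Pcna and Tyms), a share near the 24.4% of all genes. The margins over ZT1 replicate 1 were small: 84.4 against 84.0 CPM for Mcm4, 33.6 against 33.4 for Pcna and 33.4 against 32.7 for Tyms. In 14 of 19 mitotic genes ZT13 replicate 4 was below all ZT1 libraries, where 28.6% of all genes were.

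Which list differed more between the times depended on ZT13 replicate 4. Without it the medians of the log2 fold changes were -0.39 for the replication and -0.35 for the mitotic genes, so that their order turned. Without ZT1 replicate 1 they were 0.02 and -0.25, the mitotic genes still differing more, with 4 of 10 replication genes and 19 of 19 mitotic genes below 0. The number of replication genes below 0 was also lower without ZT13 replicate 2 (6 of 10), without ZT13 replicate 1 (7 of 10) and without ZT1 replicate 4 (8 of 10).

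**Figure D5:**
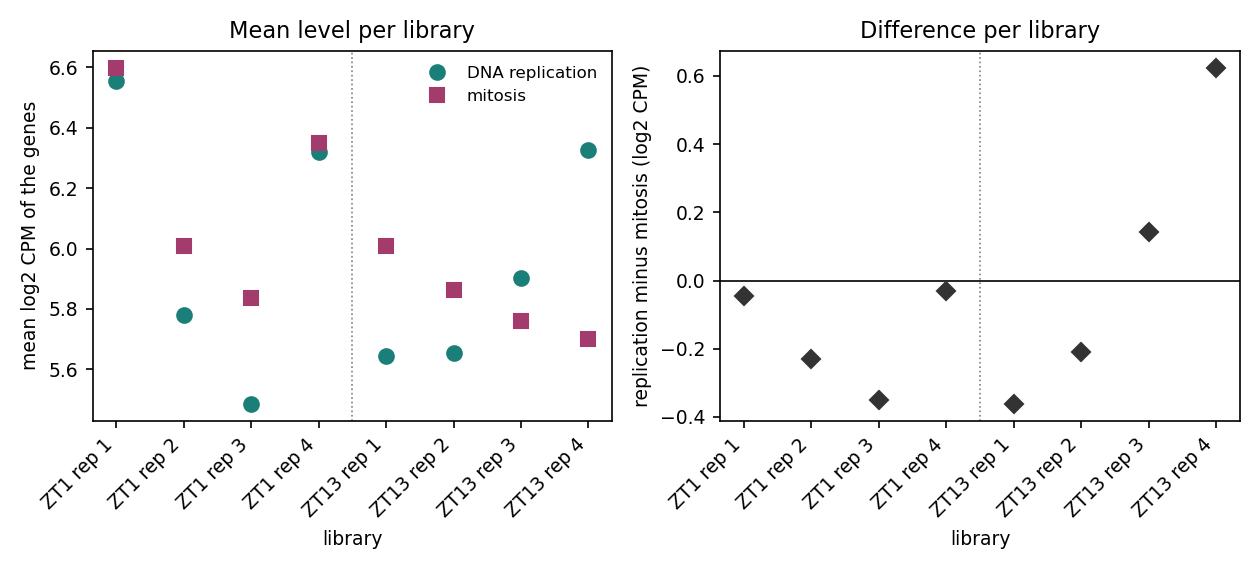
Mean log2 CPM of the 10 replication genes and of the 19 mitotic genes in each of the 8 libraries (left panel, a point per library and list), and the replication mean minus the mitotic mean in log2 CPM (right panel). ZT1 replicate 1 is highest in both lists at 6.55 and 6.60, and ZT13 replicate 4 is at 6.32 in the replication and 5.70 in the mitotic genes, a difference of 0.62.

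Of the 3 genes of neither list, Hmgb2 and Stmn1 were higher on average at ZT13 and Tubb5 was nearly level. Hmgb2, a chromatin protein of the high mobility group that dividing cells hold in large amounts, stood at 753, 814, 790.3 and 747 CPM at ZT1 and at 889, 857, 1052 and 978 CPM at ZT13. All ZT13 libraries were above all ZT1 libraries, as for 2.66% of all genes in that direction. The log2 fold change was 0.28 ± 0.09 (SE; 95% interval 0.09 to 0.47; edgeR adjusted p = 0.449), with an unadjusted p of 0.00834, where 4.35% of all genes had one under 0.05 with higher values at ZT13. Stmn1, stathmin, which takes microtubules apart, stood at 77.6, 62.0, 59.6 and 76.0 CPM at ZT1 and at 75.5, 72.4, 77.1 and 78.4 CPM at ZT13 (0.14 ± 0.12 SE; edgeR adjusted p = 0.789). Tubb5, a beta tubulin, stood at 109.9, 78.1, 57.9 and 89.3 CPM at ZT1 and at 87.8, 78.8, 80.7 and 83.7 CPM at ZT13 (-0.02 ± 0.17 SE; edgeR adjusted p = 0.986), and its sign turned under several settings. Stmn1 and Tubb5 both spread more at ZT1 (SD 9.33 and 21.7 CPM) than at ZT13 (2.57 and 3.91 CPM).

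Per length of the transcript, the levels of the genes ranged widely. Hmgb2 led with a mean level of 327 CPM per kilobase over the 8 libraries. Ube2c followed with 89.2, Rrm2 with 88.1, Stmn1 with 68.2, Ccnb2 with 64.8 and Birc5 with 64.7 CPM per kilobase. At the low end were Mki67 with 9.12, Tyms with 7.66, Cenpe with 4.35 and Cenpf with 2.43 CPM per kilobase. Lengths are those of the principal GENCODE M21 transcript, which may not be the form these cells make.

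Longer lists of the same pathways, also chosen with earlier results of these data known, were measured beside the members. Of 55 other mitotic genes, all tested, 49 were higher on average at ZT1 and 6 at ZT13, with a median log2 fold change of -0.39. Of all genes, 9.2% had an unadjusted edgeR p under 0.05 and DESeq2 called 1.7% of those it adjusted. None of the 55 passed the edgeR threshold, 15 had an unadjusted p under 0.05 (14 of them higher at ZT1) and DESeq2 called 2. These were Cdc25b, a phosphatase that activates Cdk1 (102 ± 10.3 CPM at ZT1 and 72.4 ± 11.0 at ZT13, SD, n = 4; -0.49 ± 0.13 SE; DESeq2 adjusted p = 0.0373), and Hmmr, a spindle protein (65.6 ± 19.5 and 35.2 ± 9.57 CPM; -0.90 ± 0.25 SE; DESeq2 adjusted p = 0.0439). Sgo1, which guards sister chromatid cohesion, had -1.21 ± 0.37 (SE). The most abundant, Bub3 and Smc4, had -0.23 ± 0.09 and -0.20 ± 0.21. The mean log2 CPM of the 55 genes was 5.63, 5.13, 4.92 and 5.46 at ZT1 and 4.91, 4.92, 4.94 and 4.93 at ZT13, so ZT1 replicate 3 lay at the level of the ZT13 libraries and the other 3 above it.

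Of 50 other replication genes, all tested, 29 were higher on average at ZT1 and 21 at ZT13, with a median log2 fold change of -0.10. The shares of all genes were again 9.2% with an unadjusted edgeR p under 0.05 and 1.7% called by DESeq2. None of the 50 passed the edgeR threshold, 7 had an unadjusted p under 0.05 (5 of them higher at ZT1) and DESeq2 called 1. That gene was Rpa3, a subunit of the protein that covers single-stranded DNA, at 7.65 ± 1.01 CPM at ZT1 and 11.8 ± 0.51 at ZT13 (0.63 ± 0.19 SE; DESeq2 adjusted p = 0.00591). Cdc6, which loads the helicase, stood at 17.8 ± 6.85 and 8.74 ± 3.38 CPM (-1.03 ± 0.36 SE), and Dbf4, which activates it, at 32.4 ± 11.7 and 18.3 ± 4.89 CPM (-0.83 ± 0.30 SE). The most abundant, Dck and Slbp, had -0.31 ± 0.13 and -0.13 ± 0.15. The difference between other replication and other mitotic genes in mean log2 CPM was -1.46, -1.40, -1.51 and -1.35 at ZT1 and -1.35, -1.36, -1.35 and -0.90 at ZT13. Here ZT13 replicate 4 again stood above the other libraries, but ZT13 replicate 3 did not.

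Regulators of the cycle were tested alongside. Of 19 transcription factor genes of the E2F, DREAM and FoxM1 systems, 16 were higher on average at ZT1, with a median of -0.14. E2f3 had -0.85 ± 0.35 (SE), E2f7 -0.77 ± 0.36 and Foxm1 -0.57 ± 0.26, and the most abundant, Tfdp1 and E2f2, had -0.16 ± 0.11 and -0.04 ± 0.11. Of 8 G1 cyclin and kinase genes, 5 were higher at ZT1 (median -0.19). Cdk4 had 0.39 ± 0.15 and Cdk2 -0.31 ± 0.13, and Ccnd3, cyclin D3, stood at 952 ± 48.1 and 1004 ± 122 CPM. Of 11 tested inhibitor genes, 7 were higher at ZT1 (median -0.25), with Cdkn1a (p21) at -0.40 ± 0.13, Cdkn1b (p27) at 0.50 ± 0.21 and Tob1 at 0.34 ± 0.13. None of the 3 groups held a gene past the edgeR threshold or called by DESeq2. In them 1, 2 and 3 genes had an unadjusted edgeR p under 0.05, where 9.2% of all genes did.

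Marker genes of neutrophil identity were lowest in the libraries with the highest mitotic levels. All 11 genes of neutrophil identity were present. Ly6g, the sort marker, stood at 297, 416, 498 and 264 CPM at ZT1 and at 512, 483, 492 and 454 CPM at ZT13. The summed level of the 11 genes was 64978, 84912, 97648 and 66680 CPM at ZT1 and 92330, 91894, 123630 and 130020 CPM at ZT13. ZT1 replicates 1 and 4, the libraries with the highest mitotic levels, were thus the lowest in both. The part of this in the mitotic result was not tested.

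Genes of neutrophil precursors were also compared by library. The mean log2 CPM of all 15 was 9.17, 8.74, 8.53 and 8.69 at ZT1 and 8.49, 8.85, 9.16 and 8.85 at ZT13. It was highest at ZT1 in replicate 1, as for the replication genes, but at ZT13 in replicate 3, where the replication genes were highest in replicate 4. Mpo, myeloperoxidase, stood at 415, 116, 59.2 and 177 CPM at ZT1 and at 37.8, 106, 169 and 239 CPM at ZT13. Elane, neutrophil elastase, stood at 216, 83.0, 69.5 and 106 CPM at ZT1 and at 55.8, 83.6, 134 and 147 CPM at ZT13, and Prtn3, proteinase 3, at 124, 55.0, 52.5 and 69.5 CPM at ZT1 and at 46.2, 75.0, 84.6 and 97.4 CPM at ZT13. Within each time the libraries had the same order from high to low in Mpo, Elane, Prtn3 and Mcm6. The mean of all 15 precursor genes had another order at both times. At ZT1 the order of Mcm6 was also that of the mitotic mean, and at ZT13 it was the reverse of it. Of the other replication genes, Mcm3 and Rrm2 had the order of Mcm6 too, but Mcm2, Mcm4, Mcm5, Mcm7, Pcna, Tyms and Rrm1 did not. Mpo, Elane and Prtn3 were picked out of the 15 after their values were seen. Over the whole list of 15 precursor genes, none at 0, the summed level was 84839 to 97087 CPM at ZT1 and 89432 to 119770 CPM at ZT13, most of it from granule genes that mature neutrophils also hold. Their part in the replication result was not tested.

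Markers of other cell types were measured as well. The 13 T and NK cell genes summed to 9.87 to 20.7 CPM at ZT1 and 12.1 to 22.2 CPM at ZT13, with Nkg7 as the largest part, 1 to 9 of the 13 at 0 per library, and Cd3e at 0.72 CPM at most. The 13 macrophage and microglia genes summed to 883, 1000, 1408.5 and 1104 CPM at ZT1 and to 1261, 1284, 713 and 788 CPM at ZT13, led by Csf1r. ZT1 replicate 1, highest in the mitotic genes, was the lowest ZT1 library in this sum. In the mean log2 CPM of the same 13 genes ZT1 replicate 4 was the lowest, at 3.76 against 3.79 in ZT1 replicate 1. Mrc1 was at 0 in 3 ZT13 libraries and Ms4a7 in 1. The 5 B and plasma cell genes summed to 136 to 249 CPM at ZT1 and 154 to 194 CPM at ZT13, nearly all of it Ighm. The 7 erythroid genes summed to 0.42 to 3.83 CPM at ZT1 and to 2.59 to 30.1 CPM at ZT13, the highest in ZT13 replicate 4. The 8 dendritic cell and monocyte genes, mostly Ccr2 and Ly6c2, summed to 1236 to 1606 CPM and 1418.5 to 1815 CPM, with Xcr1 at 0 in 7 of 8 libraries. The 7 neural and endothelial genes, mostly Mbp, summed to 118 to 167 CPM and 114 to 208 CPM, with Pdgfra at 0 in every library. No marker gene passed the edgeR threshold. DESeq2 called 1 gene each in the T and NK, macrophage and microglia, dendritic cell and monocyte, and neutrophil precursor lists, against 1.7% of all genes it adjusted. The lowest log2 fold change was -7.45 among the T and NK genes and -5.09 among the macrophage and microglia genes. Of those tested, 5 of 7 and 8 of 13 were higher at ZT13. The part of these cell types in the mitotic and replication results was not tested.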

How the data were processed

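RNA of 8 sorted neutrophil libraries was sequenced as single reads of 50 bases after SMART-Seq v4 amplification and Nextera XT preparation, which does not mark strand, per the labels' protocols. The labels give 1 batch. The authors deposited raw counts per gene for 23369 Ensembl identifiers. The submitters' processing notes name FastQC, STAR 2.7.10b, featureCounts, Subread 2.0.3, DESeq2 1.46.0 and GRCm38. For the annotation release, the strand setting and the treatment of reads with several matches, the sources used here give nothing. GENCODE M21 gave symbols for 22231 identifiers, and the other 1138 held 0.121% of the counts. Table columns were matched to samples by library name.

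The main test was that of edgeR 4.0.16, run under R 4.3.3, on the deposited counts (filterByExpr with a minimum count of 10 and a minimum total count of 15, TMM factors, robust quasi-likelihood F-test, Benjamini-Hochberg adjustment over 12610 genes, threshold 0.05). SEs were obtained from the log2 fold change and its F statistic. Mean log2 CPM used a prior count of 2. DESeq2 1.42.0, limma-voom (limma 3.58.1), other scalings and filters, a replicate block and leaving out each library were alternatives. The edgeR procedure was tested on simulated data. A count of 0 allows up to 3 counts, 0.0414 to 0.0674 CPM, which covers counting error only.

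The members and lists were chosen with earlier results of these data known. Values in every library are given for the 6 members with the highest level per kilobase in each of the replication and mitotic lists, the 3 members of neither, any member called by edgeR or DESeq2, the 3 with the smallest p, and Mki67, Top2a, Cdk1 and Ccnb1. Of other lists up to 3 genes with the smallest p and the 2 most abundant are named. Lin54 and Cdkn2a, also listed, were not analysed here.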

Additional observations from a re-analysis of the deposited data

How the results depend on the processing

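The mitotic genes were below 0 in 19 of 19 in all 16 alternative fits, with medians of the log2 fold change between -0.58 (without ZT1 replicate 3) and -0.25 (without ZT1 replicate 1). edgeR and limma-voom called 0 genes in every setting, while DESeq2 called 256 genes over the whole table, 1 of the 19 mitotic genes and 1 of all 32 (Bub1), against 0 in the main test. With the replicate block 0 genes passed, 972 had an unadjusted p under 0.05, and the medians were -0.15 for the replication and -0.35 for the mitotic genes. Deviations of same-numbered libraries correlated at 0.0018, -0.00062, -0.0399 and 0.0196, so no pairing by replicate number showed in the counts. Such values over all genes cannot tell whether libraries were handled in pairs. Scaling by library totals moved the median of all genes to -0.08 and those of the replication and mitotic genes to -0.26 and -0.50.

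Among 20 named genes, 4 changed sign in some fit, 14 values in all, and no value of these 4 was past the threshold. Mcm3 was at 0.034 with the replicate block and between -0.23 and 0.24 when single libraries were left out. Mcm5 ranged from -0.36 to 0.023 and Mcm6 from -0.52 to 0.080 when single libraries were left out. Tubb5 was at 0.00095 with upper-quartile factors, 0.0012 with the filter of 5 CPM in 4 samples, 0.0107 with limma-voom and 0.0178 with the replicate block, and ranged from -0.16 to 0.13 when single libraries were left out. The cause of these changes was not tested. The lowest level of any of the 32 genes in a library was 16.4 CPM, far above the limit of detection at this depth.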
